A study of Homo sapiens with 16 samples.

Results

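The 66 replication-dependent histone genes were examined in SW480 and HCT116 cells, human colorectal cancer lines, treated with andrographis or curcumin. Members were all protein-coding genes whose symbol names a clustered histone gene of class H1 (H1-1 to H1-5), H2A, H2B, H3 or H4, together with H4-16, and all 66 were present in both expression tables among 60560 genes, 19914 of them protein-coding. They comprised 5 H1, 16 H2A, 17 H2B, 13 H3 and 15 H4 genes. RNA sequencing had been done in 2 experiments of 8 libraries each, 1 for andrographis (a leaf extract of Andrographis paniculata) and 1 for curcumin (a turmeric extract). Each experiment held treated and non-treated control cells of both lines with 2 libraries per group, and RNA was taken after 16 h. No genotype was altered in any group, and each line is a single established tumor line. In the andrographis table the libraries are named only by the letters A and D, which were read as andrographis and control, and the direction of every andrographis comparison rests on that reading. Whether the 2 libraries of a group were independent cultures is not stated, so p-values measure only the spread between those libraries, which may be technical.

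Histone proteins package DNA into nucleosomes. H3 and H4 form the central tetramer, H2A and H2B join it as dimers, and H1 binds the linker DNA where it enters and leaves the particle. The replication-dependent genes lie in clusters, have no introns in their main transcripts, and are transcribed mainly in S phase, when new DNA must be packaged. Their mRNAs end in a conserved stem-loop bound by SLBP in place of a poly(A) tail, and they are degraded rapidly when DNA synthesis stops. Several genes encode the same or nearly the same protein, so the mRNA pool of each class is a sum over many copies.

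By position in RefSeq (GRCh38.p14), 65 of the 66 genes were matched by symbol, 11 of them in a cluster at chr1:149782689-149887965, 33 in a first cluster at chr6:25726063-26285534 and 21 in a second at chr6:27132316-27893891. H4-16 is named only. Promoter windows of 250 bases before to 50 bases after the transcription start were taken from RefSeq for 60 genes, which had 64 windows. Most windows carried motifs that are known from histone promoters, searched on both strands. The CCAAT box, a site for the factor NF-Y, was found in 5 of 5 H1, 15 of 15 H2A, 19 of 19 H2B and 13 of 13 H3 windows but in 3 of 12 H4 windows, against 34.6% of all 35116 windows. The TATA box, TATAAA, was found in 3 of 5 H1, 12 of 15 H2A, 14 of 19 H2B, 9 of 13 H3 and 6 of 12 H4 windows, against 11.5% of all. The octamer ATTTGCAT, a site for POU-domain factors, was found in 11 of 15 H2A and 15 of 19 H2B windows, in 1 of 13 H3 windows and in none of the 5 H1 or 12 H4 windows, against 1.77% of all. Windows of neighbouring genes on opposite strands can overlap, so 1 match can be counted for both genes and the windows are not independent. In H2A windows the octamer was found as its reverse complement, except in H2AC17. The H3 match was in H3C4, whose window is the same as that of H2AC7. AAACACA was in 5 of 5 H1 windows (5.64% of all) and GGTCC in 11 of 12 H4 windows (46.3% of all). No motif contains another. A match is a description of the letters, and no match says only that these letters are not in the window.

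Windows of 7 members that the results below turn on are shown 5′ to 3′ on the strand of the gene, with the CCAAT box, the TATA box and the class motif (AAACACA for H1, ATTTGCAT for H2A and H2B, GGTCC for H4) or its reverse complement in capitals. H1-3 (chr6:26234938-26235237, minus strand), H2BC10 (chr6:26272681-26272980, plus strand) and H4C13 (chr6:27873485-27873784, minus strand) were near-silent in HCT116 cells. H2AC14 (chr6:27814728-27815027, minus strand), H2BC13 (chr6:27807880-27808179, minus strand), H3C13 (chr1:149813644-149813943, minus strand) and H4C8 (chr6:26285485-26285784, minus strand) were measured in both lines and were among the genes that fell with andrographis.
H1-3: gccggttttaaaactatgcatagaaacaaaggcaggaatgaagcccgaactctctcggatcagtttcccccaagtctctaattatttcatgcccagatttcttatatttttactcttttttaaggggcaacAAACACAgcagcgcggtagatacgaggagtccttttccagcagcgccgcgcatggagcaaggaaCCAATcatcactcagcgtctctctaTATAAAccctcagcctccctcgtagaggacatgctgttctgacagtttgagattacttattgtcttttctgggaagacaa
H2BC10: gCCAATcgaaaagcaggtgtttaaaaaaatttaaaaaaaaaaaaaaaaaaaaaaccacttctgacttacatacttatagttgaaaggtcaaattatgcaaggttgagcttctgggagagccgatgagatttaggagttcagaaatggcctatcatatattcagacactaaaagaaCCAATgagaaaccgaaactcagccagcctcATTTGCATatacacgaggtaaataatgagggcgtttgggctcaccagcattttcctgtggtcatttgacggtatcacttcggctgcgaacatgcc
H4C13: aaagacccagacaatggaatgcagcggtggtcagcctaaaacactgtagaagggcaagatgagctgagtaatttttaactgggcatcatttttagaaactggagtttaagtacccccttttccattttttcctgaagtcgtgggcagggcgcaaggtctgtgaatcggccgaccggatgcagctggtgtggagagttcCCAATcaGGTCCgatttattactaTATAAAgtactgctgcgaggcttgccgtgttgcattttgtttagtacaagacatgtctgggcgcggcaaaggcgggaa
H2AC14: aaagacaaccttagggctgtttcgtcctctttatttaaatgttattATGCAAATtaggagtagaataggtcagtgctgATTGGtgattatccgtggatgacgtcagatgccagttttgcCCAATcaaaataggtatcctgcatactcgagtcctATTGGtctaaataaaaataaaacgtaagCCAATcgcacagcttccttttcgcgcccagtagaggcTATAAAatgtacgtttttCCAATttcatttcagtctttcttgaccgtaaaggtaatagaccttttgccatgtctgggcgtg
H2BC13: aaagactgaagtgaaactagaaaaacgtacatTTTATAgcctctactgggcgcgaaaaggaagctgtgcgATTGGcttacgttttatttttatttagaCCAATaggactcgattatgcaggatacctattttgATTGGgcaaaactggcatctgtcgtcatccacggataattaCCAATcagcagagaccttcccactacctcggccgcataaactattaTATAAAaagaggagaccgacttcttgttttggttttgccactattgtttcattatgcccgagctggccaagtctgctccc
H3C13: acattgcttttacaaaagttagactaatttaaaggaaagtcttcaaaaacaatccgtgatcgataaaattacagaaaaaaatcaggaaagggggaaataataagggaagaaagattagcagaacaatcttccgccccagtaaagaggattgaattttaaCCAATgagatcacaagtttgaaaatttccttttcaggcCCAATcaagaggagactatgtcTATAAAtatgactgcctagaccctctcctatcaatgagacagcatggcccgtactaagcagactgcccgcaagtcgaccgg
H4C8: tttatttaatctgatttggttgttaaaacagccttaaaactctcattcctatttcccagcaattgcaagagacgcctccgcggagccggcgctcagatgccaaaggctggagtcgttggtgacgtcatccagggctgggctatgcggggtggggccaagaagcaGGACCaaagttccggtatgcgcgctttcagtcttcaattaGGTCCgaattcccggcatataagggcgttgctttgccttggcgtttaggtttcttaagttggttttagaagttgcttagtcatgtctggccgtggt
TATAAA on the strand of the gene began 28 to 31 bases before the start in H1-3, H4C13, H2AC14, H2BC13 and H3C13. H2BC10 held no TATAAA and had the octamer 45 bases before its start, and H4C8 held no TATA box and no CCAAT box and had GGTCC 46 bases before its start.

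Values are given in FPKM (fragments per kilobase of gene, scaled to the size of the library), so levels of different genes are per length. The depth recovered from the tables was 15.7 to 32.3 M reads (M, mega) per library in the andrographis experiment and 9.40 to 23.1 M reads in the curcumin experiment. Of 8 epithelial marker genes 7 had a mean above 1 FPKM in each experiment (VIL1 did not), with summed levels of 957 to 1890 FPKM with andrographis and 669 to 1056 FPKM with curcumin, while 0 of 7 immune and 1 of 7 stromal or endothelial markers did. The 2 tables held different kinds of RNA. Protein-coding genes made 96.9 to 97.6% of the summed FPKM in the andrographis table and 80.9 to 85.7% in the curcumin table, long noncoding RNA 0.0979 to 0.181% against 1.84 to 2.72%, and mitochondrial rRNA 0.0273 to 0.0617% against 6.17 to 10.1%. Levels were therefore tested only within a table.

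Histone genes were among the most abundant transcripts of the andrographis experiment and close to the limit of measurement in the curcumin experiment. In the andrographis experiment 41 to 56 of the 66 genes reached 1 FPKM in a library and 23 to 38 reached 100 FPKM. In the curcumin experiment 18 to 37 reached 1 FPKM and 0 reached 100 FPKM. The histone genes together took 4.15 to 9.33% of the summed FPKM of a library with andrographis and 0.0232 to 0.0655% with curcumin. The kit named for the libraries is the same in both experiments, and how it bears on mRNAs without a poly(A) tail in either was not tested.

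In control cells of the andrographis experiment the summed histone level was 19076 and 18514 FPKM in SW480 and 14350.4 and 15733 FPKM in HCT116. After andrographis it was 13340.5 and 8249 FPKM in SW480 and 9057 and 8939 FPKM in HCT116. Every treated library was below every control library of its line, and the treated SW480 libraries lay further apart than any other pair. In bulk RNA, fewer cells in S phase and less histone mRNA per cell cannot be told apart. In HCT116 controls H2A and H2B genes each supplied 31.3 to 32.2% of the summed histone level, H4 genes 19.0% and 20.01%, H3 genes 9.09 to 9.20% and H1 genes 7.75 to 8.13%. In SW480 the H1 share was 4.39 and 4.43% in the replicate 1 libraries (control and treated) and 11.7 and 11.2% in the replicate 2 libraries, so the H1 share of SW480 differed between replicate numbers and hardly between treatments.

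**Figure D1:**
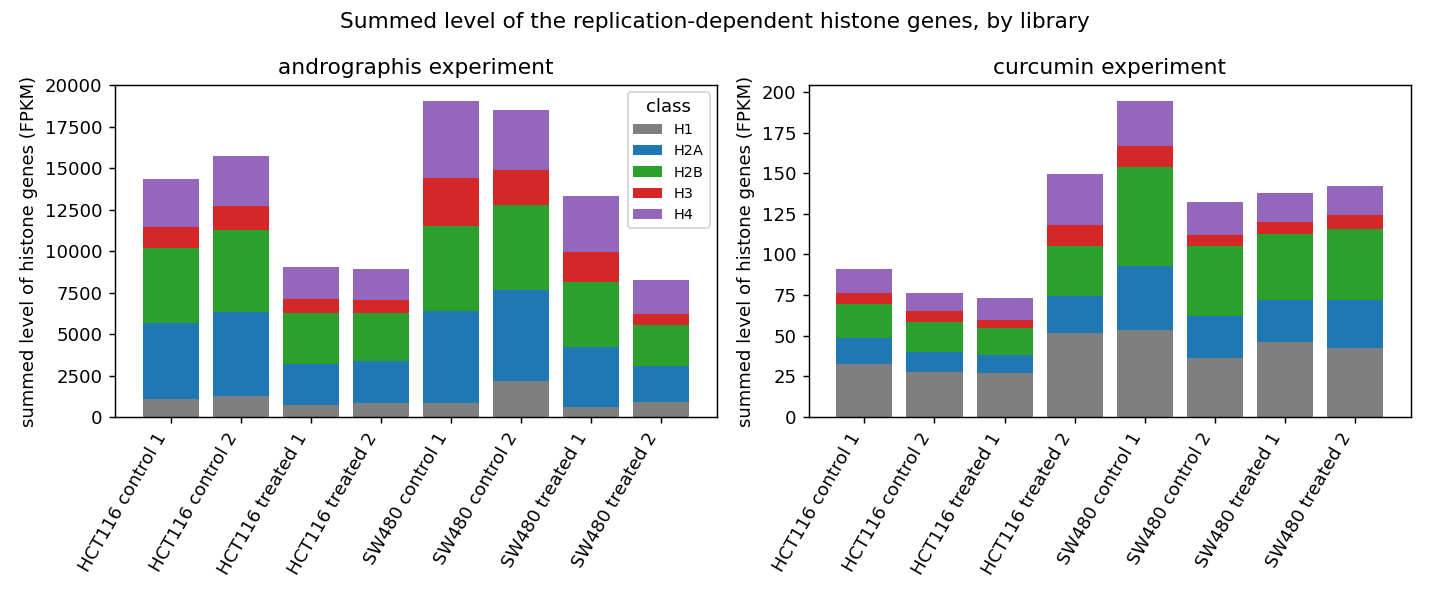
Summed level of the 66 histone genes in each library (bars, FPKM, coloured by class), with the andrographis experiment on the left and the curcumin experiment on the right on axes of different scale. Treated libraries of the andrographis experiment sum to 8249 to 13340.5 FPKM and controls to 14350.4 to 19076 FPKM, while no curcumin library exceeds 195 FPKM.

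The first comparison asked which histone genes changed with andrographis in SW480. Members were called lower in all 5 classes, with only 1 call each in H1 and H4, and none was called higher. Of 58 members that passed the filter (1 FPKM in at least 2 libraries), 16 fell and 0 rose at a limma adjusted p below 0.05 and an absolute log2 fold change above 0.5, or 27.6% of those tested, while 3.63% of all 12811 genes tested fell and 2.71% rose. The count at an unadjusted p below 0.05 was 36 lower and 0 higher, against 1785 lower and 1573 higher among all 12811 genes. The median log2 fold change was -0.88 for histone genes and -0.00 for all genes, and 0.15 for the 265 genes with a mean of at least 100 FPKM, histone genes included. The 8 members that did not pass the filter were H2AC1, H2AC7, H2AC15, H2BC1, H3C4, H3C14, H4C6 and H4C7.

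The linker histone H1-3 had the largest fall, from 9.50 and 20.4 FPKM in control SW480 libraries to 1.78 and 2.55 FPKM in treated ones (log2 fold change -2.26, SE 0.30, limma adjusted p = 0.0138). The control values themselves differed, but the groups did not overlap. The SE pools the spread of all 8 libraries. H1-3 was at 0 to 0.0491 FPKM in HCT116, which adds hardly any spread, so its SE may be too small for SW480. The same limit holds for H2AC8, H2AC16, H2BC3 and H2BC10, which were also called in SW480 and near-silent in HCT116. The core histone H3C13 was at 58.4 and 57.2 FPKM in controls and at 20.6 and 9.92 FPKM after treatment (log2 fold change -1.94, SE 0.29, limma adjusted p = 0.0179). H3C1 was at 82.3 and 75.5 FPKM in controls and at 37.4 and 14.1 FPKM after treatment (log2 fold change -1.73, SE 0.38, limma adjusted p = 0.0437). For both H3 genes the controls lay close together and treated replicate 2 was the lowest library.

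H3 genes had the lowest class median in SW480, -1.20, with 3 of 11 tested members called lower. The median was -0.89 for H1 (1 of 5), -0.87 for H2A (6 of 13), -0.86 for H2B (5 of 16) and -0.65 for H4 (1 of 13). Leaving out 1 library moved the median between -1.87 and -0.39 for H3, -1.66 and -0.19 for H1, -1.17 and -0.08 for H4, -1.10 and -0.54 for H2B and -0.91 and -0.65 for H2A, so the order of the classes was not fixed. The third H3 gene called was H3C12. The H2A genes called were H2AC20, H2AC8, H2AC14, H2AC12, H2AC4 and H2AC16, with log2 fold changes of -1.44 to -0.75, and the H2B genes were H2BC10, H2BC18, H2BC14, H2BC21 and H2BC3, with -1.34 to -0.87. The H4 gene called was H4C14, at 1.29 to 1.78 FPKM in controls, which shares nearly all of its sequence with H4C15, so that their reads may be split. H2AC20, the H2A gene with the highest mean over the 8 libraries, was at 1155 and 1008 FPKM in controls and at 528 and 297 FPKM after treatment.

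Among members with a mean of at least 5 FPKM in SW480, all 52 had a log2 fold change below 0, with a median of -0.94, or 52.1% of control. In 35 of the 52 both treated libraries lay below both controls, against 19.3% of the 6709 genes at that level. These were 1 of 4 H1, 10 of 12 H2A, 14 of 16 H2B, 7 of 9 H3 and 3 of 11 H4 genes, so the overlap between treated and control libraries was mostly in H1 and H4.

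The H1 and H4 overlap went with a difference between the SW480 replicates. The most abundant linker histone gene, H1-2, was at 470.3 and 1034 FPKM in the 2 controls and at 347 and 492 FPKM after treatment (log2 fold change -0.75, SE 0.37, limma adjusted p = 0.250). H1-4 was at 194 and 562 FPKM in controls and at 153 and 204 FPKM after treatment. H4C3, a highly expressed H4 gene, was at 1072 and 649 FPKM in controls and at 788 and 221 FPKM after treatment. H1 genes were thus higher in replicate 2 and H4 genes lower, in control and treated cells alike. Between the control replicates (2 minus 1) the median log2 difference was 1.33 for H1 (4 of 4 genes higher), 0.29 for H2A, 0.05 for H2B, -0.28 for H3 and -0.71 for H4 (1 of 11 higher), and between the treated replicates 0.46, -0.18, -0.57, -1.35 and -1.20. Over all genes it was 0.00 in controls and -0.03 in treated libraries. Control replicate 2 was the deepest library of the experiment (32.3 M reads) and treated replicate 2 the shallowest (15.7 M reads), and the part of depth in these differences was not tested.

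The number of calls depended on single libraries. It was 12 without SW480 control replicate 1, 2 without control replicate 2, 42 (41 lower and 1 higher) without treated replicate 1, and 11 without treated replicate 2. Fitted on the 4 SW480 libraries alone, limma called 0 members, with 23 lower and 1 higher at an unadjusted p below 0.05. Shares of all genes called in these refits were not counted.

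The second comparison asked the same of HCT116. Histone genes were called lower here too and none was called higher, and the replicates lay closer together. Of 58 members tested, 10 fell and 0 rose, or 17.2%, while 3.18% of all genes tested fell and 2.48% rose. At an unadjusted p below 0.05 the counts were 25 lower and 0 higher, against 1724 lower and 1315 higher among all 12811 genes. The median log2 fold change was -0.61 for histone genes and -0.02 for all genes. Class medians were -0.78 for H2A (4 of 13 called lower), -0.50 for H2B (5 of 16), -0.59 for H4 (1 of 13), -0.52 for H3 (0 of 11) and -0.01 for H1 (0 of 5). These medians include 15 genes that were near-silent in HCT116, all but H2BC3 and H4C9 of which passed the filter only through SW480. They had little level to lose in HCT116, and their log2 fold changes there were -0.67 to 0.23 with a median of -0.04. Over the 37 members with a mean of at least 5 FPKM in HCT116 the class medians were -0.97 for H3 (5 genes), -0.87 for H2A (10 genes), -0.68 for H4 (9 genes), -0.67 for H2B (11 genes) and -0.63 for H1 (2 genes), in another order.

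**Figure D2:**
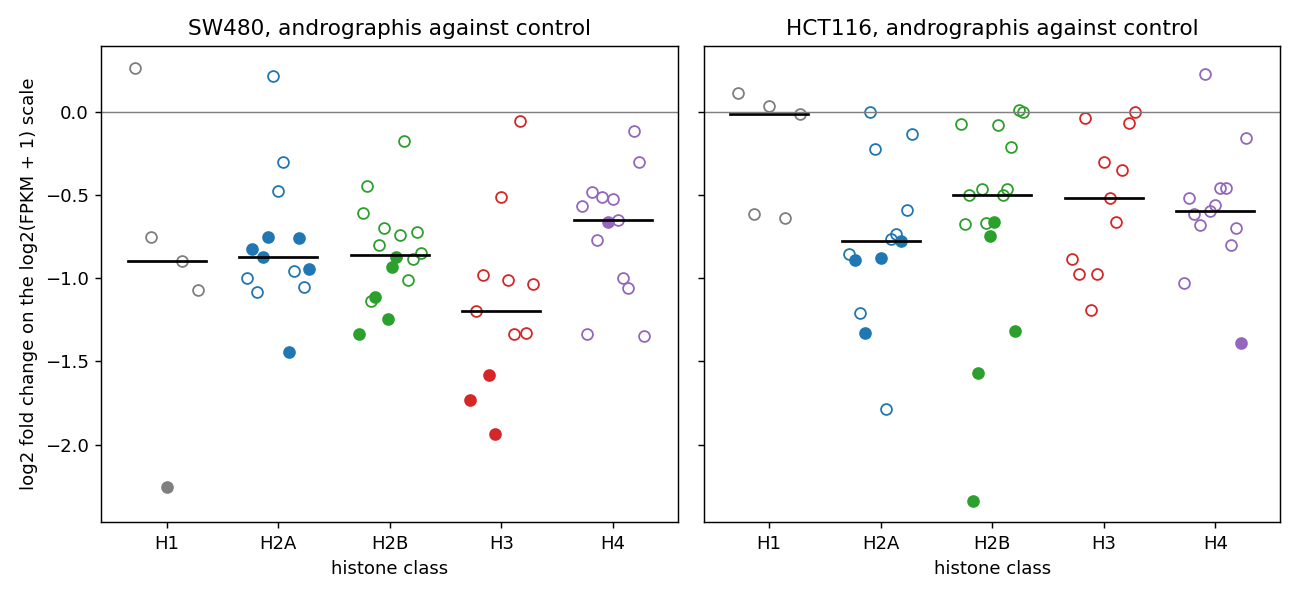
Log2 fold change (treated minus control, log2(FPKM + 1) scale) of each tested histone gene by class in the andrographis experiment, with SW480 on the left and HCT116 on the right. Filled points passed the test, open points did not and bars are class medians. In SW480 56 of 58 points lie below 0 and 16 are filled, and in HCT116 52 of 58 lie below 0 and 10 are filled.

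The H2B gene H2BC13 had the largest fall in HCT116, from 144 and 154 FPKM in controls to 31.6 and 26.1 FPKM after treatment (log2 fold change -2.34, SE 0.30, limma adjusted p = 0.00952). In SW480 it was at 572 and 565 FPKM in controls and at 365 and 183 FPKM after treatment, which did not pass the test (limma adjusted p = 0.0656). H2BC14 was at 247 and 273 FPKM in HCT116 controls and at 85.7 and 87.8 FPKM after treatment (log2 fold change -1.57, SE 0.25, limma adjusted p = 0.0192). Replicates of both genes lay close together and far from the other group in HCT116.

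H4C8 was at 29.4 and 32.3 FPKM in HCT116 controls and at 11.1 and 11.2 FPKM after treatment (log2 fold change -1.39, SE 0.28, limma adjusted p = 0.0360). In SW480 the same gene was at 288 and 208 FPKM in controls and at 266 and 148 FPKM after treatment, so the groups overlapped there. The other HCT116 calls were H2AC14, H2BC7, H2AC12, H2AC18, H2AC4, H2BC18 and H2BC21, with log2 fold changes of -1.33 to -0.66. H2AC14, H2BC14, H2AC12, H2AC4, H2BC18 and H2BC21 were called lower in both lines, 6 of the 16 called in SW480 and 6 of the 10 called in HCT116. How many of all genes were called lower in both lines was not counted, and both comparisons used the same estimate of the spread. H2AC18 and H2AC19 are nearly identical copies, and H2AC19 was at 53.3 FPKM in HCT116 control replicate 1 and at 6.14 to 13.8 FPKM in the other 7 libraries, so their separate values are uncertain.

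**Figure D3:**
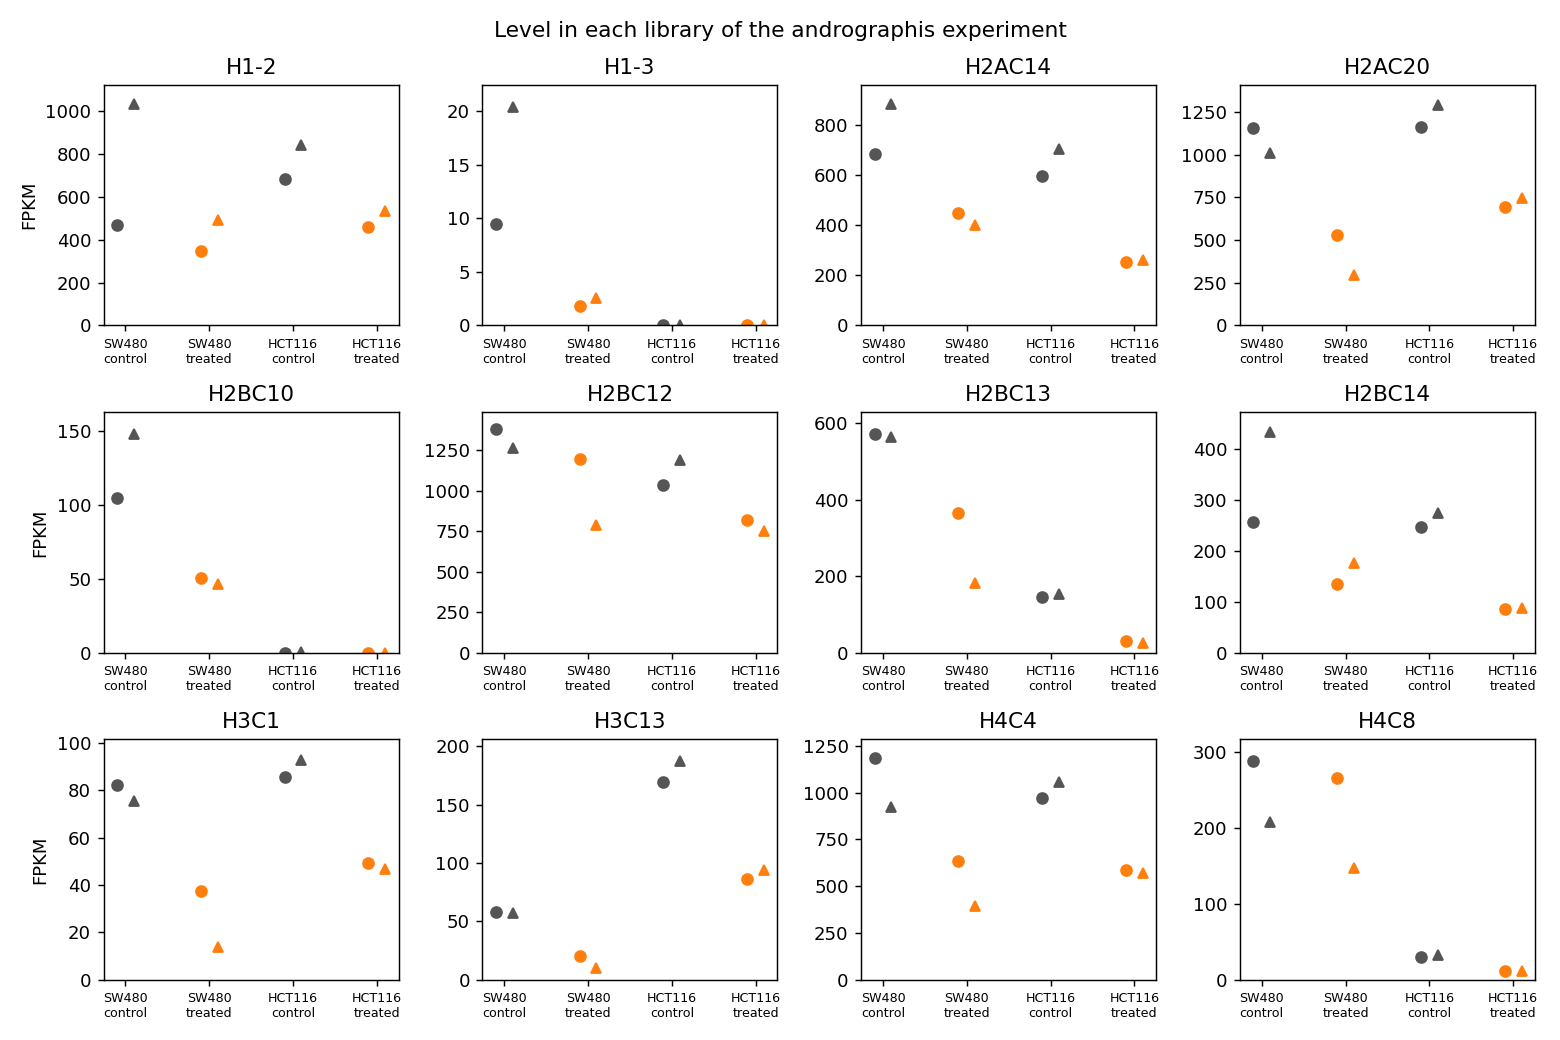
Level (FPKM, linear axes from 0) of 12 histone genes in each library of the andrographis experiment, with controls in grey, treated libraries in orange, replicate 1 as circles and replicate 2 as triangles. H2BC13 in HCT116 drops from 144 and 154 to 31.6 and 26.1 FPKM, while H1-2 in SW480 spans 470.3 to 1034 FPKM between the controls.

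Among members with a mean of at least 5 FPKM in HCT116, all 37 had both treated libraries below both controls, against 36.4% of the 7218 genes at that level. Their median log2 fold change was -0.75, or 59.5% of control, and the range was -2.34 to -0.46. The abundant members lay on both sides of that median. H2AC20 was at 1162 and 1291 FPKM in controls and at 694 and 746 FPKM after treatment (log2 fold change -0.77), and H2AC13 at 848 and 917 against 385 and 377 FPKM (-1.21). Both fell short of the test (limma adjusted p = 0.141 and 0.245). H2BC12 was at 1036 and 1189 FPKM in controls and at 818 and 752 FPKM after treatment, and H2BC4 at 709.5 and 794 against 557 and 504 FPKM. H1-2 was at 685 and 840 against 460.0 and 532 FPKM, and H4C4 at 971 and 1055 against 589 and 571 FPKM. The groups of these last 4 genes did not overlap in HCT116 but the genes did not pass the test (limma adjusted p = 0.106 to 0.550).

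The SE came from all 8 libraries, SW480 included. Fitted on the 4 HCT116 libraries alone, limma called 33 members lower and 0 higher. The share of all genes called was not counted for that fit or for those leaving out 1 library. Without HCT116 control replicate 1, treated replicate 1 or treated replicate 2 the fit of the other 7 libraries called 0 members, with 17 to 21 lower and 0 or 1 higher at an unadjusted p below 0.05, and without control replicate 2 it called 1.

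The difference in response between the lines was tested directly. It was called for 2 of the 58 members, H1-3 (log2 difference HCT116 minus SW480 of 2.29, SE 0.43, limma adjusted p = 0.0491) and H2BC10 (1.27, SE 0.24, limma adjusted p = 0.0487), against 1.32% of all genes called higher and 1.04% called lower. Both genes were near-silent in HCT116 and passed the filter through SW480, so the difference restates their fall in SW480 and is not read as a different response. H1-3 was listed at 0 in 3 HCT116 libraries and at 0.0491 FPKM in treated replicate 2, and H2BC10 was at 0, 0.105, 0 and 0 FPKM in HCT116 against 105 and 148 FPKM in SW480 controls and 50.5 and 46.7 FPKM in treated SW480. No member with a measurable level in both lines was called for a difference in response. The number called moved in refits without single libraries, for which shares of all genes were not counted. It was 19 (all higher) without SW480 treated replicate 1, 3 (all lower) without SW480 treated replicate 2, and 0 without SW480 control replicate 2 or any single HCT116 library.

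Many histone genes differed in level between the lines, as did many of all genes. In control libraries of the andrographis experiment 15 of 58 members (25.9%) were higher and 19 (32.8%) lower in HCT116 than in SW480. Of all genes 32.7% were higher and 19.5% lower. The lower genes included 15 that were near-silent in HCT116, a pattern noticed in the values and then defined as at most 2 FPKM in all 4 HCT116 libraries and at least 5 FPKM in both SW480 controls. These were H1-3, H1-5, H2AC8, H2AC16, H2BC3, H2BC6, H2BC8, H2BC9, H2BC10, H3C3, H3C7, H3C8, H3C11, H4C9 and H4C13. Their highest HCT116 value was 1.61 FPKM, and the most reads of any in an HCT116 library was about 22. All but H2BC3 and H4C9 passed the filter through SW480 alone, so their direction in this comparison was set by the filter. No member was near-silent in SW480 by the reverse definition, 37 were measured in both lines and 14 were at or below 5 FPKM in all 8 libraries. How many of all genes meet the near-silent definition was not counted, so the pattern is not read as particular to histone genes.

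Several of the 15 were major histone genes of SW480. H3C7, the second most abundant H3 gene over the 8 libraries, was at 695 and 381 FPKM in SW480 controls and at 442 and 94.2 FPKM after treatment, and at 0, 0.102, 0 and 0 FPKM in HCT116. H4C13 was at 783 and 878 FPKM in SW480 controls and at 0.112 to 0.442 FPKM in HCT116. H2AC16 was at 766 and 954 FPKM in SW480 controls and at 0.314 to 0.361 FPKM in HCT116. In each of these genes every HCT116 library was far below every SW480 library. For the SW480 controls the definition of near-silent fixed this in advance.

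Of the 15 near-silent genes, 13 lay in runs with others. None was among the 11 members of the chromosome 1 cluster, 10 were among the 33 of the first and 5 among the 21 of the second chromosome 6 cluster. H2AC16, H1-5, H3C11 and H4C13 lie side by side at chr6:27865317-27873534, within 8.22 kb and with no other member between them. H2BC3 and H3C3 lie side by side at chr6:26043227-26045869. Of the 10 members at chr6:26216200-26273412, a span of 57.2 kb, 7 were near-silent (H2BC8, H2AC8, H1-3, H3C7, H2BC9, H3C8 and H2BC10), and the other 3 (H3C6, H4C6 and H4C7) were at or below 5 FPKM in all 8 libraries. H2BC6 and H4C9 stood alone, each between members measured in both lines. H4C8, the next member after the longest span, was measured in both lines, at 29.4 and 32.3 FPKM in HCT116 controls. TATAAA was in 7 of 14 windows of near-silent genes and in 28 of 34 windows of genes measured in both lines, the octamer in 7 of 14 and 15 of 34, and CCAAT in 14 of 14 and 28 of 34. Some of these windows overlap, so a match can be counted for both genes.

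**Figure D4:**
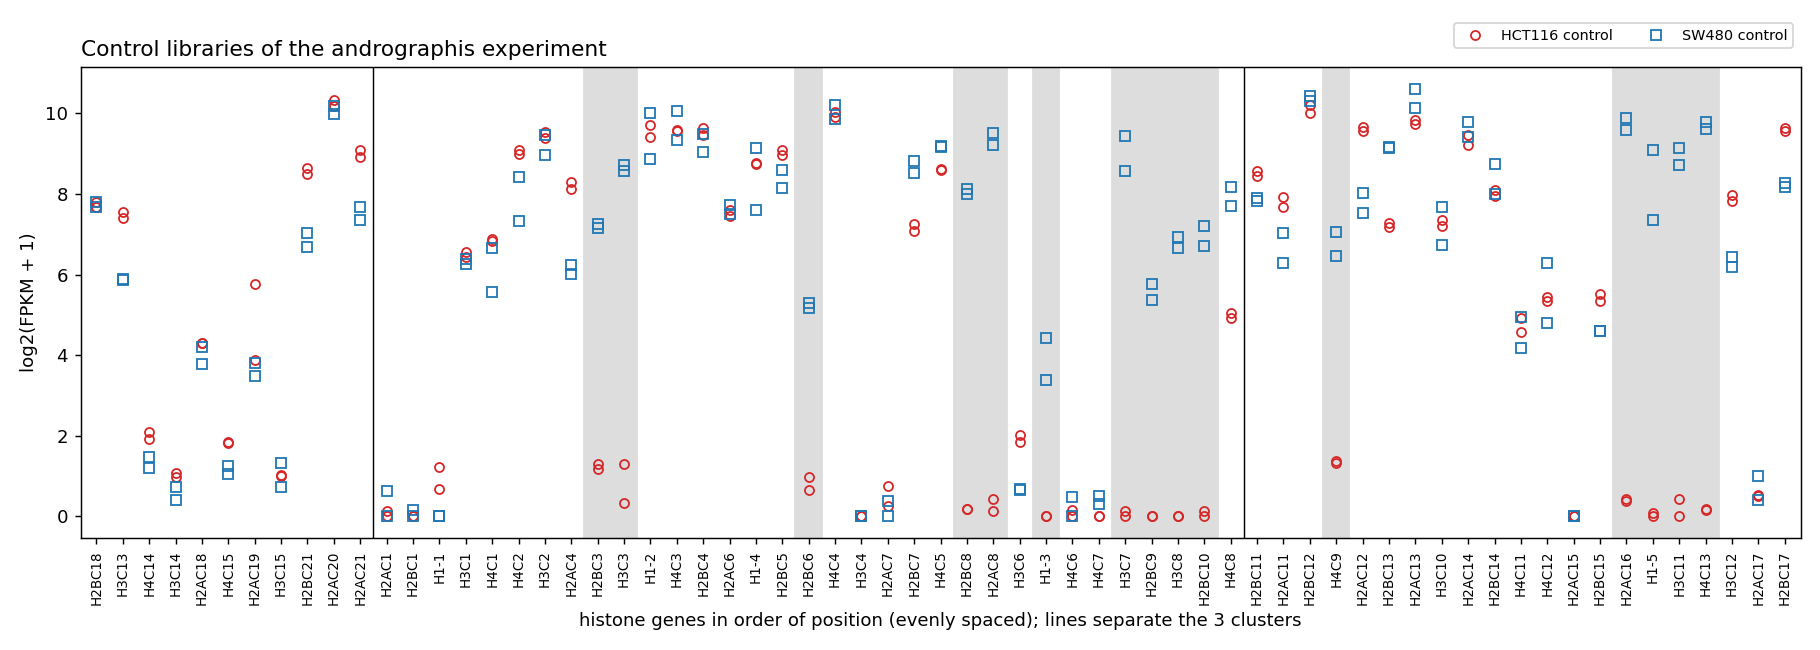
Level (log2(FPKM + 1)) of the histone genes in control libraries of the andrographis experiment, in order of position and evenly spaced, with HCT116 as red circles and SW480 as blue squares (2 libraries each). Grey bands mark the 15 genes near-silent in HCT116, which form runs in both chromosome 6 clusters and are absent from the chromosome 1 cluster.

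Many H2A and H2B genes are arranged head to head. RefSeq starts of neighbouring members on opposite strands lay less than 1000 bases apart in 11 pairs. Of these, 10 paired an H2A with an H2B gene, separated by 194 to 248 bases. Only the 60 genes with a promoter window had a strand and were searched, so the count of pairs may be too low. Both partners were near-silent in HCT116 in H2BC8 and H2AC8, at 280 and 255 FPKM and at 598 and 725 FPKM in SW480 controls, and in the wider pair H3C7 and H2BC9 (979 bases), at 695 and 381 FPKM and at 53.9 and 40.0 FPKM in SW480 controls. Both partners were at or below 0.538 FPKM in all control libraries in H2AC1 and H2BC1. In 3 pairs 1 partner stayed low and the other did not. H2BC17 was at 756 and 791 FPKM in HCT116 controls and its partner H2AC17 at 0.446 and 0.415 FPKM, H2BC7 was at 135 and 152 FPKM with H2AC7 at 0.682 and 0.198 FPKM, and H2BC15 was at 39.9 to 45.2 FPKM with H2AC15 at 0. The levels of the partners thus differed widely in these 3 pairs.

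The 15 members higher in HCT116 included H2AC4 (log2 difference 2.09, SE 0.14, limma adjusted p = 2.4e-05), H2AC12 (1.83, SE 0.18, limma adjusted p = 0.000126) and H2BC21 (1.72, SE 0.15, limma adjusted p = 7.4e-05). Of the most abundant members, H2BC12, H2BC4, H2AC20, H2AC13, H3C2, H4C3, H4C4, H1-2 and H1-4 were not called between the lines.

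The curcumin experiment asked the same questions at a level near the lower end of measurement. Summed histone FPKM was 195 and 132 in SW480 controls, 138 and 142 after curcumin, 90.9 and 76.6 in HCT116 controls and 73.4 and 149 after curcumin. The groups overlapped in both lines. HCT116 treated replicate 2 and SW480 control replicate 1 stood above their partners, and the former had 10.4 M reads against 17.8 to 21.6 M reads in the other HCT116 libraries. Of the 34 members tested, limma called 0 in SW480 and 0 in HCT116, while 0.104% of all 16341 genes tested rose and 0.159% fell in SW480 and 0.0857% rose and 0.0673% fell in HCT116. At an unadjusted p below 0.05, 2 were lower in SW480 and 1 lower in HCT116, with none higher. Of all 16341 genes, 1197 were lower and 798 higher in SW480 at that p, and 951 lower and 974 higher in HCT116. The median log2 fold change was -0.21 in SW480 (30 of 34 below 0) and 0.09 in HCT116 (7 of 34 below 0), and -0.02 and -0.00 over all genes. Of all 16341 genes, 9225 lay below 0 in SW480 and 8399 in HCT116. Some members were at the floor in HCT116, such as H2AC16 and H2BC10 at 0 FPKM in every library. The signs are therefore not read as opposite responses of the lines. The difference in response was called for 0 members and for 0% of all genes in either direction, with 3 members higher and 0 lower at an unadjusted p below 0.05. Of all 16341 genes, 813 were higher and 528 lower at that p. The other 32 members did not pass the filter, so no change could be assessed for them.

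The member with the highest level in the curcumin table was H1-2. It was at 30.1 and 25.3 FPKM in SW480 controls and 27.4 and 26.1 FPKM after curcumin, and at 18.2 and 18.0 FPKM in HCT116 controls and 16.2 and 24.8 FPKM after curcumin. It was followed by H1-4, H2BC5, H2BC12, H2AC6 and H2BC21, with means of 5.32 to 14.04 FPKM over the 8 libraries. In H1-2 the treated libraries overlapped the controls in HCT116 and lay between them in SW480.

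The difference between the lines was also visible in the curcumin controls. Of 34 members tested, 1 (2.94%) was higher and 18 (52.9%) lower in HCT116, while 21.4% of all genes were higher and 23.8% lower. Of the 15 genes near-silent in HCT116 in the andrographis experiment, 11 had every HCT116 library below every SW480 library here too, against 10 of the 37 measured in both lines. The highest HCT116 value of the 15 was 1.64 FPKM, and 6 of them were listed at 0 in all 4 HCT116 libraries. How many of all genes had every HCT116 library below every SW480 library here was not counted. The gene called higher was H3C6 (log2 difference 0.78), which was also higher in HCT116 in the andrographis experiment (1.26). It was below 1 FPKM in every SW480 library of both experiments, so it passed the filter through HCT116.

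In 4 genes the line difference was called in both experiments with opposite signs. H2BC21 was at 359 and 403 FPKM in HCT116 controls and 102 and 130 FPKM in SW480 controls of the andrographis experiment (log2 difference 1.72). In the curcumin experiment it was at 1.86 and 1.51 FPKM in HCT116 and 9.08 and 9.20 FPKM in SW480 (log2 difference -1.92, SE 0.15, limma adjusted p = 6.2e-05). H2BC11 had log2 differences of 0.65 and -1.24, H2AC11 of 1.13 and -0.51, and H2BC5 of 0.66 and -0.79 in the andrographis and curcumin experiments. Calls close to the threshold were H2BC11 with andrographis (limma adjusted p = 0.0405), H2AC11 with curcumin (0.0344) and H2BC5 in both (0.0388 and 0.0421). H2AC11 was at only 0.925 to 1.82 FPKM in the curcumin controls. H2BC11 reached 1 FPKM in 1 HCT116 library of the curcumin experiment and passed the filter there through SW480. The order of the lines for these 4 genes thus turned with the experiment. The experiments differed in kinds of RNA as described, and the part of the library type was not tested. Another 10 genes were called with the same sign in both, and most of them passed the curcumin filter through SW480 alone. The shares of all genes called with the same or opposite signs were not counted.

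**Figure D5:**
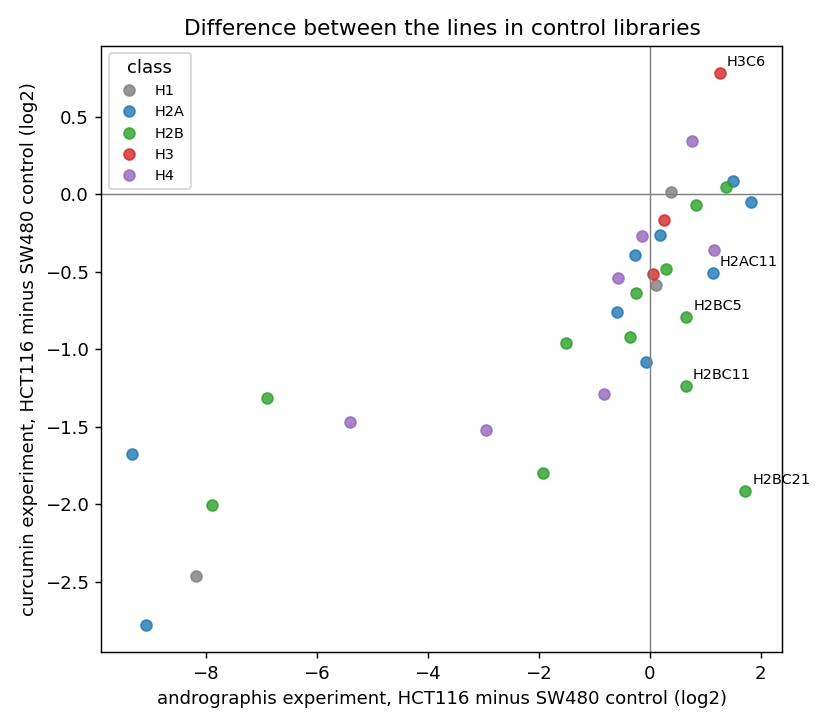
Difference between HCT116 and SW480 control libraries (log2, HCT116 minus SW480) in the andrographis (horizontal) and curcumin (vertical) experiments for the 34 histone genes tested in both, coloured by class. The named genes right of 0 and below it (H2BC21, H2BC11, H2AC11 and H2BC5) were called with opposite signs, and H3C6 was called higher in both.

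Lists of genes that act around the replication-dependent histones were counted in the andrographis experiment, and were not tested against the histone genes. The shares of all genes called, 2.71% higher and 3.63% lower in SW480 and 2.48% higher and 3.18% lower in HCT116, stand beside these counts. Of 12 replication-independent histone variant genes, which are expressed outside S phase, 1 fell and 0 rose in HCT116 (H2AZ2, log2 fold change -0.72), with a median of -0.30. Of 20 genes for transcription and 3′ processing of histone mRNA, 0 were called in either line, with medians of 0.19 and 0.03. Of 19 tested histone chaperone genes 0 were called in either line, with medians of 0.26 and -0.09.

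Of 41 DNA replication and S-phase entry genes, 8 rose and 0 fell in SW480, with a list median of 0.33. They were ORC1 (log2 fold change 0.97), a subunit of the origin recognition complex, MCM2 (0.95), MCM3, MCM4 and MCM5, subunits of the replicative helicase, CDC25A (0.93), a phosphatase that activates CDK2, GINS2 (0.87), a helicase cofactor, and PCNA, the replication clamp. In HCT116 1 rose and 0 fell, CCNE1 (0.95), the cyclin of S-phase entry, with a list median of -0.01. The response of MCM2 and ORC1 differed between the lines (log2 difference -1.23 and -0.98). In SW480, 3 of 7 epithelial markers also fell (median -0.61). With curcumin MCM7 fell in HCT116 (-0.54), and no other gene of these 4 lists was called in either line.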

How the data were processed

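The authors deposited 1 table per experiment with log2(value + 1) for 60560 genes in 8 libraries. The unit behind the log2 values is not named in the sources used here and was inferred as FPKM from low microRNA genes. There 97.5% of 315 values (andrographis) and 97.1% of 1559 values (curcumin) were whole multiples of 1 read (up to 20 reads checked). The tolerance was 0.01 of the read number. The depth was chosen to make this share high, so the share is no separate check of the depth. Of low values of histone genes, 74.3% of 70 (andrographis) and 62.2% of 185 (curcumin) lay within 0.1 of a whole read. Read numbers of members are therefore approximate. Per the labels, total RNA was made into libraries with a TruSeq RNA kit, and the processing notes name bcl2fastq 2.20.0.422, STAR 2.7.8a, Partek 10.0.22.0121 and DESeq2, and the builds GRCh38 and mm10, with no role. The counting tool, its strand setting and its handling of shared reads are not given in the sources used here, so values of near-identical histone genes (H3C14 and H3C15, H4C14 and H4C15, H2AC18 and H2AC19) are uncertain.

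Each table was fitted with limma 3.58.1 (R 4.3.3, lmFit and eBayes with trend, 4 group means) over every gene that reached 1 FPKM in 2 or more libraries of the experiment, with Benjamini-Hochberg adjustment over all of them. Calls needed an adjusted p below 0.05 and an absolute log2 fold change above 0.5. Fold changes are on the log2(FPKM + 1) scale, which understates changes of low genes. Values per library are given for the 2 most abundant members of each class, up to 3 called members with the largest change either way per comparison and up to 3 called in the interaction, and other members for a stated reason after their values were seen. The definition of near-silent genes, the head-to-head pairs and the opposite line differences were also chosen after values were seen. The members, lists and tests were chosen with earlier results of these data known. The scripts were tested on simulated data. Alternatives were scaling to the same median, limma without trend, other filters and pseudocounts, a replicate block, only the libraries compared, and leaving out each library. A fit of protein-coding genes only was added after seeing the data. Promoter sequences and positions are from RefSeq (GRCh38.p14). The result of the replication-independent variant list in SW480 is not reported here.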

Additional observations from a re-analysis of the deposited data

Results flagged for a closer look

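The response to andrographis differed between the lines by the test of the difference itself (limma, adjusted over all genes) in H1-3, by 2.29 on the log2 scale, and in H2BC10, by 1.27, both HCT116 minus SW480. Both genes were at or below 0.105 FPKM in every HCT116 library, and H1-3 was at or below 20.4 FPKM in SW480. They passed the filter through SW480 and had no level to lose in HCT116, so the differences restate their fall in SW480 (-2.26 and -1.34) and are not evidence of a different response.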

How the results depend on the processing

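All 16 members called in SW480 and all 10 called in HCT116 with andrographis kept a log2 fold change below 0 under every alternative that gave a value. Leaving out 1 library, the call itself was kept in 35 of 64 cases in SW480 and in 0 of 40 in HCT116, and under the other alternatives in 105 of 142 and 74 of 90. The count of calls in SW480 was 2 with no filter, 0 in the fit of its own libraries alone and 2 to 42 leaving out 1 library. In HCT116 it was 3 with no filter, 6 with a pseudocount of 0.1, 33 in the fit of its own libraries and 0 to 1 leaving out 1 library. For the difference in response it was 1 with scaling to the same median, with a filter at 10 FPKM, with a pseudocount of 10 or with the replicate block, 0 without trend, with no filter or with a pseudocount of 0.1, and 0 to 19 leaving out 1 library, with the direction turned (3 lower) without SW480 treated replicate 2. For the line difference in the curcumin experiment it was 2 with a filter at 10 FPKM, where 3 members were tested, and 3 with a pseudocount of 10. The causes were not tested, and the share of all genes called under each alternative was not counted. The 0 calls with curcumin were kept under every alternative.

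Class medians of the line difference turned sign under some alternative in every class but H2B with andrographis, and in H3 with curcumin. In the andrographis experiment they were -0.073 (H1) and -0.11 (H3) and -0.01 (H2A) with scaling to the same median, against 0.12, 0.07 and 0.18, and leaving out 1 library they ranged from -0.45 to 0.69 (H1), from -0.0099 to 0.24 (H3) and from -0.49 to 0.23 (H4, -0.13 with all libraries). In the curcumin experiment the H3 median, over 3 genes, ranged from -0.56 to 0.27.

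Replicate numbers are shared only as numbers. The correlation of replicate differences between control and treated libraries over all genes was 0.56 in SW480 and -0.00 in HCT116 with andrographis, and 0.03 and 0.20 with curcumin. Over the histone genes tested it was 0.86 and 0.43 with andrographis (58 genes) and -0.01 and -0.42 with curcumin (34 genes), genes that share libraries and are not independent. With the replicate block 18 members were called in SW480, 10 in HCT116 and 36 between the lines with andrographis, and 0, 0 and 18 with curcumin.

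With 2 libraries per group, members near 1 FPKM rest on few reads, and only 18 to 37 of the 66 histone genes reached that level in a curcumin library.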
